A study of Mus musculus with 8 samples.

Results

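The genes described here encode the enzymes that make sterols and fatty acids, with the proteins that switch them on, and all are taken as targets or parts of the sterol regulatory element-binding protein (SREBP) system. They were listed by name, 31 in all, and 28 of them were measured, among 17097 genes in the table. A gene counted as measured where a probe set of the array was annotated to its symbol alone, and its value is that of the probe set with the highest mean over all arrays. Pmvk, Srebf1 and Scd2 are not analysed here. The levels are normalized log2 values from Affymetrix mouse arrays, 1 array per animal. Skin cells from 4 young animals, killed at 2 months, were compared with those from 4 old animals, killed at 18 months. Neither strain, sex nor treatment is given in the sources used here. The cells of both ages were freshly sorted dermal fibroblasts, taken after the subdermis was removed, and were chosen for Pdgfra and CD34 and against CD45, CD117, CD24, CD31 and EpCam. Collection ran over several days, with an animal of each age on each, but the labels do not say which animals shared a day. Little RNA was used (6 ng), and it was amplified before labelling.

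SREBPs are transcription factors held in the membrane of the endoplasmic reticulum. When membrane sterol is low, the escort protein Scap carries them to the Golgi, where proteases release the active part, and when sterol is plentiful Insig proteins keep Scap in place. The released factors bind sterol regulatory elements in promoters, commonly together with NF-Y, which binds CCAAT boxes, and Sp1, which binds GC boxes. Sterol synthesis runs from acetyl-CoA through mevalonate, isoprenoids, squalene and lanosterol to cholesterol, while the fatty acid branch makes palmitate and then elongates and desaturates it.

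The promoter sequences of 22 of the 28 measured genes were given in 25 windows, from RefSeq (GRCm38.p6), and the 250 bases before each start were searched on both strands. A sterol regulatory element core, TCACNCCAC, was present in 1 window, that of Hmgcs1, or 4.0% of the 25, against 1.05% of 32851 windows of all RefSeq genes. CCAAT was present in 68.0% of the members' windows and 33.8% of all windows, the GC box GGGCGG in 80.0% and 32.7%, and the E-box CACGTG in 20.0% and 6.02%. The windows of all genes include non-coding transcripts and were not filtered by chromosome. A start need not be the outermost of its gene: the windows used for Acaca and Fasn lie inside the gene. So does a window of Dhcr7 that holds 2 CCAAT and 3 GC boxes, and some other windows lie partly inside. Among members that rose with age CCAAT was in 70.0% of 10 windows, and among members that did not pass the test in 66.7% of 15. The 4 sequences below are shown because Hmgcs1 holds the sterol element, Idi1 and Cyp51 were among the sterol genes that rose most, and Elovl6, the fatty acid gene that rose most, held none of the 4 motifs in its window. Capitals mark TCACNCCAC and CCAAT, read on either strand, so that ATTGG is a CCAAT of the other strand.
Hmgcs1, chr13:119690101-119690350, plus strand: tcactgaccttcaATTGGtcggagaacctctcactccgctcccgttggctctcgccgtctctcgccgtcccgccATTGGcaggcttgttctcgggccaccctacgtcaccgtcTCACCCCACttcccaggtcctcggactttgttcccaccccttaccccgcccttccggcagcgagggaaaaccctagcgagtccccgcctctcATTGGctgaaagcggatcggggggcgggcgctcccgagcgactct
Idi1, chr13:8885356-8885605, plus strand: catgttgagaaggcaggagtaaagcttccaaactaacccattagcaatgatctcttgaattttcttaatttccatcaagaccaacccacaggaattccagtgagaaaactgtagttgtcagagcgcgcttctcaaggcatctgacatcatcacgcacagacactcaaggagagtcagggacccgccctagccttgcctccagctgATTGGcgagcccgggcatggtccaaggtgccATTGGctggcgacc
Cyp51, chr5:4104698-4104947, minus strand: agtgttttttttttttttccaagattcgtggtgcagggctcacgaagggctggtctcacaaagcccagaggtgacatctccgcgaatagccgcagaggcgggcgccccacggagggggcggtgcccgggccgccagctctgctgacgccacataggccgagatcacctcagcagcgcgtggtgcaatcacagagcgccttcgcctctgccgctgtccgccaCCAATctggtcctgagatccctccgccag
Elovl6, chr3:129532136-129532385, plus strand: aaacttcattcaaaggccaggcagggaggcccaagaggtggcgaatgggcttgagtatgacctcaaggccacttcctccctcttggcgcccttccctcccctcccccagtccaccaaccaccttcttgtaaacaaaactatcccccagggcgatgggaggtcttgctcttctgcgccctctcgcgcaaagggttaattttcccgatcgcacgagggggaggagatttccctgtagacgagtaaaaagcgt
In the Hmgcs1 window the sterol element begins 137 bases before the start and lies among 3 CCAAT boxes, which begin 237, 176 and 45 bases before the start. Idi1 holds 2 CCAAT boxes and Cyp51 holds 1. A match describes these letters and is not evidence of binding. Only exact strings within 250 bases were searched, so a window without a match is not evidence that an element is lacking.

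The arrays were checked against the labelled cell type first. Of 7 fibroblast markers 1 was called, Col3a1 (-0.28, adjusted p = 0.00765). Dcn, the brightest, differed by -0.09 (adjusted p = 0.393), and the mean level of the list lay between 11.32 and 11.45 in young and between 11.13 and 11.25 in old. None of the 7 genes of the sort gate was called by limma, and Cd34, the brightest, differed by -0.04 (adjusted p = 0.729). Cd24a had the smallest p, with -0.67 (adjusted p = 0.0515). Of the other genes sorted against, Epcam differed by 0.34 (adjusted p = 0.0746) and Pecam1 by 0.37 (0.294). Markers of lipid-making and epidermal cells did move. Of 6 measured sebocyte markers 4 rose with age, Far2 (1.94, adjusted p = 0.00542), Fa2h, Krt79 (1.21) and Cidea, and their mean level was 4.73 to 5.22 in young and 5.48 to 6.15 in old. Of 9 keratinocyte markers 3 rose and 1 fell, with Krt14 at 1.65 (adjusted p = 0.00469) and the brightest, Krt5, at 1.04 (0.0379). The mean level of these 9 was 7.47 to 8.81 in young and 8.27 to 9.48 in old. It was thus above the median level of all genes, 5.99, at both ages. Trp63 was the keratinocyte marker that fell (-0.41, adjusted p = 0.0237), and 5 did not pass. The sebocyte receptor Mc5r was at 4.26 in young and 4.38 in old (adjusted p = 0.583), and 5 adipocyte markers were not called, the adipocyte hormone Adipoq being at 3.62 and 3.59. Plin4, brightest and of smallest p in that list, differed by 0.22 (adjusted p = 0.204). An index of non-specific binding, the mean of the array's 13 control probe sets with at least 13 G and C bases of 25, lay between 5.44 and 5.68 in young and between 4.87 and 5.32 in old. Of the other lists, 5 endothelial and 2 Schwann cell markers gave no call, with Cldn5 at -0.26 (adjusted p = 0.173) and S100b at 0.09 (0.549) as those of smallest p. The brightest of these lists were Kdr (0.14, adjusted p = 0.869) and Sox10 (-0.06, 0.619). Of 6 macrophage markers Csf1r fell (-1.92, adjusted p = 5.90e-06) and Lyz2 rose (1.08), of 4 mural markers Kcnj8 rose (0.64), and of 4 melanocyte markers Mlana fell (-0.56), while Pmel, the brightest, was at -0.08 (adjusted p = 0.555). In such bulk samples a larger share of cells of a type and more RNA per cell cannot be told apart.

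The old samples had higher levels of 12 of the 28 genes and a lower level of 1, and 15 did not pass the test (limma, Benjamini-Hochberg adjusted p under 0.05 over all genes). That is 42.9% higher, against 9.87% of all genes tested, and 3.57% lower, against 7.66%. For the same 12 genes every old array lay above every young array, which held for 11.7% of all genes, and for the 1 that fell every old array lay below, as for 9.66% of all genes. The median difference over the 28 genes was 0.20 on the log2 scale and that of all genes was 0.01. Sterol enzymes gave 7 higher and 0 lower of 16, fatty acid enzymes 3 higher and 1 lower of 8, and carrier and regulators 2 higher of 4. Without old replicate 2 the count of higher genes was 7, against 1378 of all genes. Without young replicate 1 or young replicate 3 it was 8, against 1463 and 1215 of all genes. With all arrays 1688 of all genes were higher. The count of lower genes was 1 whichever array was left out, against 983 to 1218 of all genes (1310 with all arrays).

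**Figure D1:**
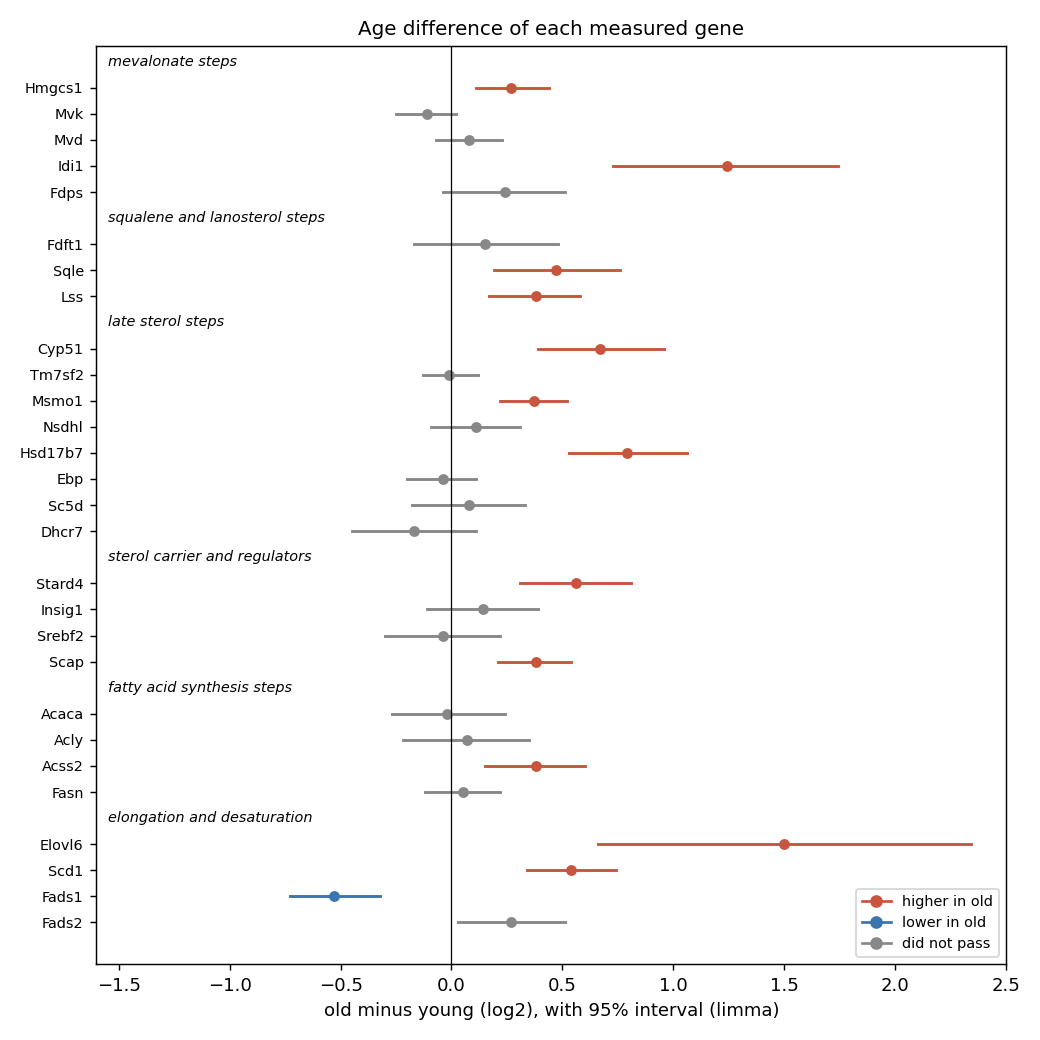
Difference between old and young (x axis, log2) of the 28 measured genes in pathway order, with the 95% interval from limma; red marks genes higher in old, blue lower, grey those that did not pass the test. The largest are Elovl6 (1.5) and Idi1 (1.24), and Fads1 (-0.53) is the gene that fell.

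In the mevalonate steps, which lead from acetyl-CoA to the isoprenoid farnesyl diphosphate, 2 of 5 measured genes rose. Idi1, which isomerises isopentenyl diphosphate, was at 6.30, 6.77, 6.77 and 7.29 in the young animals and at 7.54, 8.03, 7.99 and 8.51 in the old ones. The highest young value was below the lowest old value, and the first animal of each age was the lowest of its group. Idi1 was thus 2.35-fold higher in old (log2 difference 1.24 ± 0.23 SE, adjusted p = 0.00483), and a further probe set of the gene gave 0.80 ± 0.12. Hmgcs1, the synthase that makes HMG-CoA and the gene whose sterol element is shown above, was at 4.49, 4.69, 4.52 and 4.66 in young and 4.76, 4.99, 4.85 and 4.85 in old. Its groups did not overlap, but the difference was small, 0.27 ± 0.07 (SE, adjusted p = 0.0302). The call was lost without any of 5 arrays (young 1, young 3 and each old array but the first), with an adjusted p of at most 0.0857. Mevalonate kinase, Mvk, differed by -0.11 (95% interval -0.25 to 0.02), Mvd, which makes isopentenyl diphosphate, by 0.08 (-0.07 to 0.23) and Fdps, the farnesyl diphosphate synthase, by 0.24 (-0.04 to 0.51). None of these 3 passed, and their groups overlapped. The Mvk window held 5 CCAAT boxes, more than that of Idi1.

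Of the 3 genes that carry farnesyl diphosphate through squalene to lanosterol, 2 rose. Squalene epoxidase, Sqle, an oxygen-requiring step, was at 4.95, 5.15, 5.20 and 5.33 in young and 5.42, 5.86, 5.40 and 5.84 in old. The old animals fell into a lower and a higher pair, both above all young animals, and the difference was 0.47 ± 0.13 (SE, adjusted p = 0.0293). Lanosterol synthase, Lss, was at 3.66, 3.96, 3.71 and 3.95 in young and 4.13, 4.35, 4.06 and 4.24 in old, a difference of 0.38 ± 0.09 (SE, adjusted p = 0.0215). Lss was dim: the lowest value of the table was 3.14 and the median level of all genes 5.99. Single arrays left out ended both calls, for Sqle any of the first 3 young arrays, old 2 or old 4 (highest adjusted p 0.0779) and for Lss young 1, young 3, old 2 or old 4 (highest 0.0636). Squalene synthase, Fdft1, the first step committed to sterols, differed by 0.15 (95% interval -0.17 to 0.48) and did not pass. Its lowest arrays were young 1 (6.02) and old 1 (6.27), below all others.

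Of the 8 genes that turn lanosterol into cholesterol, 3 rose, and all act in removing its extra methyl groups. Cyp51, the lanosterol demethylase, was at 7.39, 7.72, 7.71 and 7.98 in young and 8.33, 8.53, 8.14 and 8.49 in old. The groups did not overlap, and the gene was 1.59-fold higher in old (0.67 ± 0.13 SE, adjusted p = 0.00566). Of its 3 probe sets the other two gave 0.59, which was called, and 0.39, which was not (adjusted p = 0.171). Msmo1, the methylsterol oxidase, was at 4.59, 4.46, 4.66 and 4.52 in young and 4.87, 4.88, 4.91 and 5.05 in old, a difference of 0.37 ± 0.07 (SE, adjusted p = 0.00528), while its second probe set gave 0.02 (adjusted p = 0.898). Hsd17b7, the ketosteroid reductase of the same demethylation, had the smallest p of the 28 genes. It was at 6.93, 6.66, 7.11 and 6.94 in young and 7.70, 7.52, 7.61 and 7.98 in old, 1.73-fold higher (0.79 ± 0.12 SE, adjusted p = 0.00156). All 4 old animals lay above all young ones. Its other probe sets gave 0.88, which was called, and 0.14, which was not. Nsdhl, the dehydrogenase that works between Msmo1 and Hsd17b7, differed by 0.11 (95% interval -0.09 to 0.31) and did not pass.

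The other late steps did not pass the test. Tm7sf2, a sterol reductase, was between 5.95 and 6.03 in young and between 5.93 and 6.04 in old, so its 8 values nearly coincided (difference -0.01, 95% interval -0.13 to 0.12). Ebp, the sterol isomerase, differed by -0.04 (-0.20 to 0.11), Sc5d, the desaturase after it, by 0.08 (-0.18 to 0.33) and Dhcr7, which makes cholesterol in the last step of its route, by -0.17 (-0.45 to 0.11). For Dhcr7 the lowest arrays of each age were again young 1 (8.23) and old 1 (8.03). Thus the calls in the sterol branch covered steps from Hmgcs1 to Hsd17b7 with gaps between them, and whether called and uncalled steps differ was not tested.

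**Figure D2:**
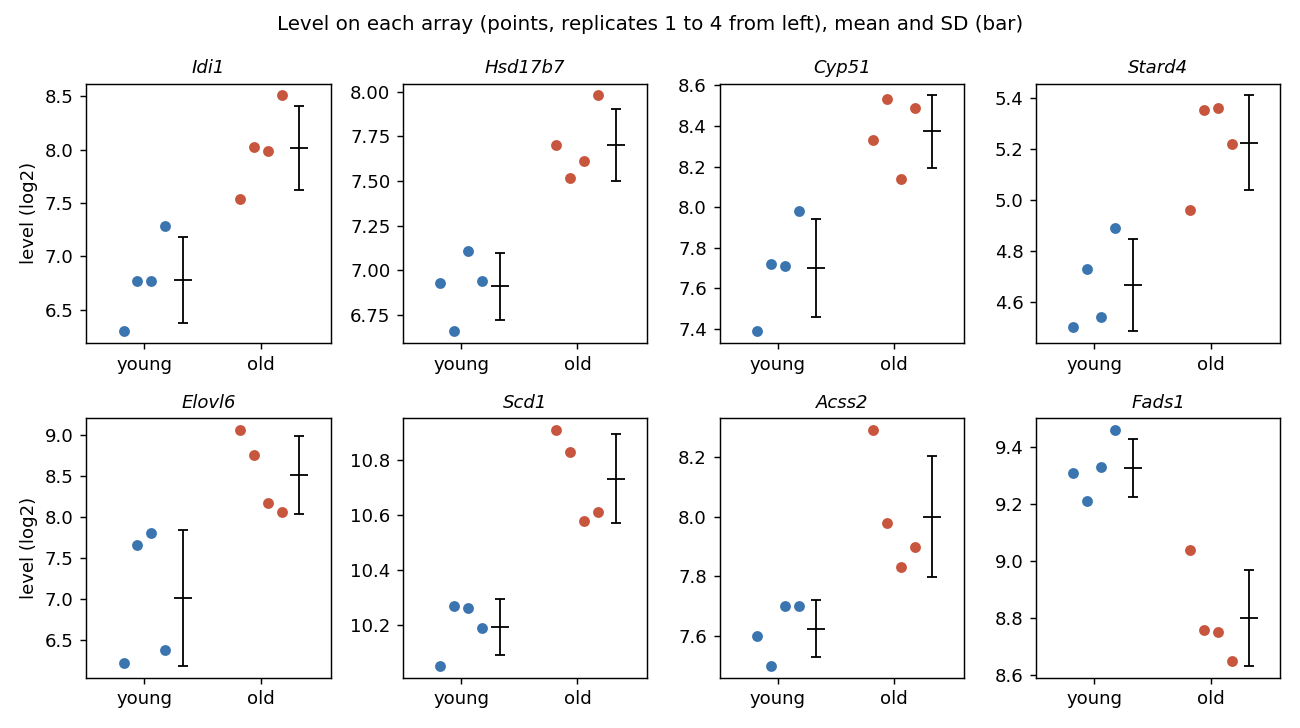
Levels (y axis, log2; each panel has its own scale) of 8 genes on each young (blue) and old (red) array, with mean and SD of each group (n = 4). The groups do not overlap in any panel: 7 genes are higher in old, and Fads1 is lower (9.33 in young, 8.80 in old).

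Of the sterol carrier and the regulators, 2 of 4 rose. Stard4, which moves cholesterol between membranes, was at 4.50, 4.73, 4.54 and 4.89 in young and 4.96, 5.35, 5.36 and 5.22 in old, and the groups did not overlap. The difference was 0.56 ± 0.11 (SE, adjusted p = 0.00811), with its other probe sets at 0.34 (called) and 0.20 (not called). Scap, the escort protein of the SREBPs, was at 7.68, 7.82, 7.87 and 7.64 in young and 8.16, 8.16, 8.20 and 7.99 in old, 1.30-fold higher (0.38 ± 0.08 SE, adjusted p = 0.00799). The factor that Scap escorts for sterol genes, Srebf2, did not pass: it was at 7.27, 7.59, 7.51 and 7.81 in young and 7.35, 7.70, 7.43 and 7.55 in old, and the interval of its difference ran from -0.30 to 0.22. Insig1, which holds Scap back and is itself an SREBP target, was between 10.11 and 10.70 in young and between 10.44 and 10.61 in old. Its difference of 0.14 (95% interval -0.11 to 0.39) did not pass either.

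Among the 4 enzymes that make palmitate or feed its synthesis 1 rose. Acss2, which makes acetyl-CoA from acetate, was at 7.60, 7.50, 7.70 and 7.70 in young and 8.29, 7.98, 7.83 and 7.90 in old. The groups did not overlap, and old 1 stood above the other old arrays. The difference was 0.38 ± 0.10 (SE, adjusted p = 0.0294), with 0.32 from the second probe set. The call was lost without old 2 or any of the first 3 young arrays (highest adjusted p 0.081) and also after median centring (0.0688) or a further quantile normalization (0.0578). The 3 enzymes of the main route did not pass. Acly, which makes acetyl-CoA from citrate, differed by 0.07 (95% interval -0.22 to 0.35), the carboxylase Acaca by -0.02 (-0.27 to 0.24) and the fatty acid synthase Fasn by 0.05 (-0.12 to 0.22). Acly was at 9.16 in young 1 and 9.20 in old 1, with the other 6 arrays between 9.40 and 9.68, and Acaca was at 8.86 and 8.75 against 9.07 to 9.21. In both genes the first animals of the 2 ages lay apart from the rest and close to each other.

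Of the 4 measured enzymes that elongate and desaturate fatty acids 2 rose and 1 fell. Elovl6, which lengthens palmitate to stearate, was at 6.22, 7.66, 7.80 and 6.37 in young and 9.06, 8.76, 8.17 and 8.06 in old. The young animals split into a low and a high pair, and all old animals lay above both. It was 2.83-fold higher in old (1.5 ± 0.38 SE, adjusted p = 0.022), with 1.05 and -0.05 (adjusted p = 0.797) from its other probe sets. The call was lost without young 4 or either of the first 2 old arrays (highest adjusted p 0.0597) and with trend and robust settings (0.0573). Scd1, which puts the first double bond into stearate and palmitate, was at 10.05, 10.27, 10.26 and 10.19 in young and 10.91, 10.83, 10.58 and 10.61 in old, 1.45-fold higher (0.54 ± 0.09 SE, adjusted p = 0.00298). Its second probe set gave 0.38 (adjusted p = 0.0518). Old 1 and old 2 were the highest arrays for both Elovl6 and Scd1, and they were also the highest for the mean of the sebocyte markers (0.69 and 0.80, against 0.14 and 0.13 in old 3 and 4). Young 1 was the lowest for Elovl6, Scd1 and those markers. The part of these markers' cells in the result was not tested.

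The desaturases of polyunsaturated fatty acids did not move alike. Fads1 (delta-5) was at 9.31, 9.21, 9.33 and 9.46 in young and 9.04, 8.76, 8.75 and 8.65 in old, and every old animal lay below every young one. It fell by 0.53 on the log2 scale (SE 0.09, adjusted p = 0.00374), and it was called whichever array was left out (highest adjusted p 0.0132). A second probe set of Fads1, at 4.83 in both ages, showed no difference (0.00 ± 0.10 SE, adjusted p = 0.989). Fads2 (delta-6), which acts before Fads1, was at 6.40, 6.89, 6.82 and 6.83 in young and between 6.89 and 7.12 in old. The groups met at 6.89, and its difference of 0.27 (95% interval 0.03 to 0.51) did not pass over all genes (adjusted p = 0.122). A dimmer probe set of Fads2 gave 0.57 and was called (adjusted p = 0.00835).

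The probe sets of a gene thus did not always give the same answer. The 28 genes had 50 probe sets, 16 genes having 2 or 3, of which 19 were called higher and 1 lower over 28898 probe sets tested (9.63% of all probe sets were higher and 7.16% lower). Of 9 called genes with several probe sets, 6 had a further one called the same way: Idi1, Cyp51, Hsd17b7, Stard4, Acss2 and Elovl6. Msmo1, Scd1 and Fads1 did not. In 4 genes, none with calls of both signs, the probe sets differed in sign.

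**Figure D3:**
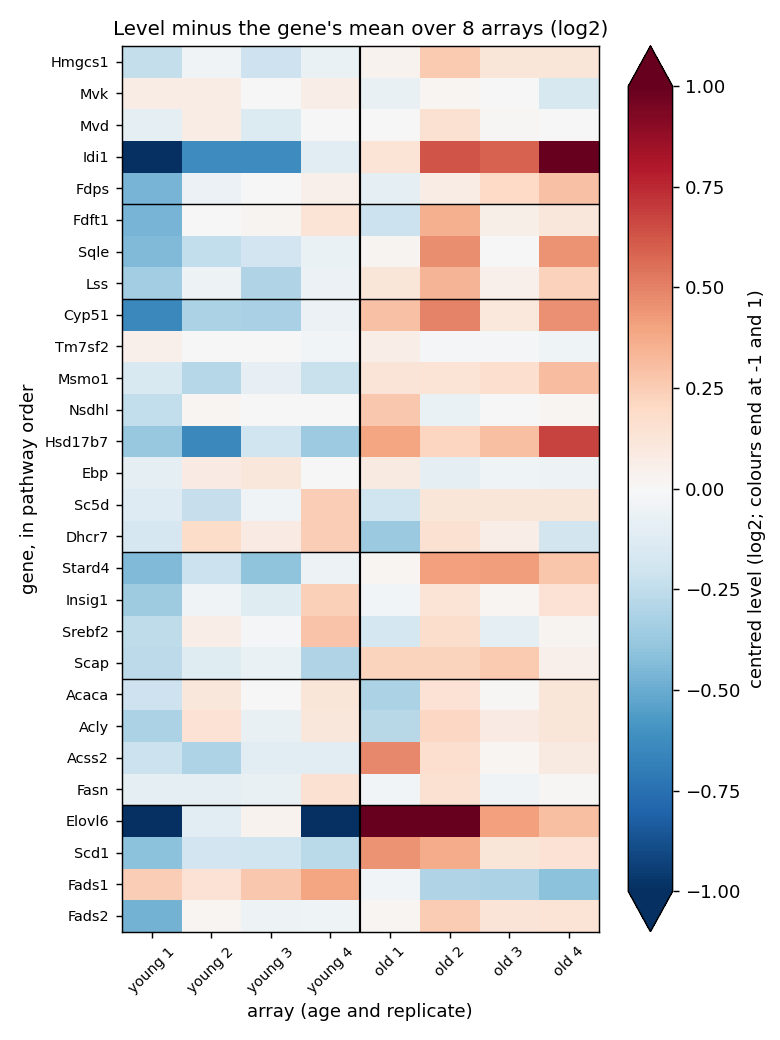
Level of each of the 28 genes (rows, in pathway order, lines between the groups of steps) on each array (columns) minus the gene's mean over the 8 arrays, in log2; colours end at -1 and 1. Old arrays are mostly red for Idi1, Cyp51, Hsd17b7 and Elovl6, and young 1 is blue in most rows.

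The 2 branches were compared as mean centred levels on each array, given as values with no test. The 16 sterol enzymes averaged -0.30, -0.13, -0.12 and -0.01 in the young animals and 0.04, 0.20, 0.11 and 0.21 in the old ones. The 8 fatty acid enzymes averaged -0.38, -0.03, -0.03 and -0.13 in young and 0.20, 0.25, 0.05 and 0.06 in old. In both branches the old values lay above the young ones, and both differed by 0.28 between ages. The sterol mean minus the fatty acid mean was 0.07, -0.10, -0.09 and 0.11 in young and -0.16, -0.04, 0.06 and 0.15 in old, with the ages overlapping and a difference of 0.00 (SD within an age 0.12). The fatty acid mean rested largely on Elovl6. Without it the 7 remaining enzymes averaged -0.21 to 0.05 in young and 0.00 to 0.14 in old, which overlap, with a difference of 0.11 between ages. The sterol mean minus this fatty acid mean was -0.11 to -0.07 in young and -0.01 to 0.18 in old, so the ages did not overlap, with a difference of 0.17. Without Idi1, its largest change, the contrast was -0.06.

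**Figure D4:**
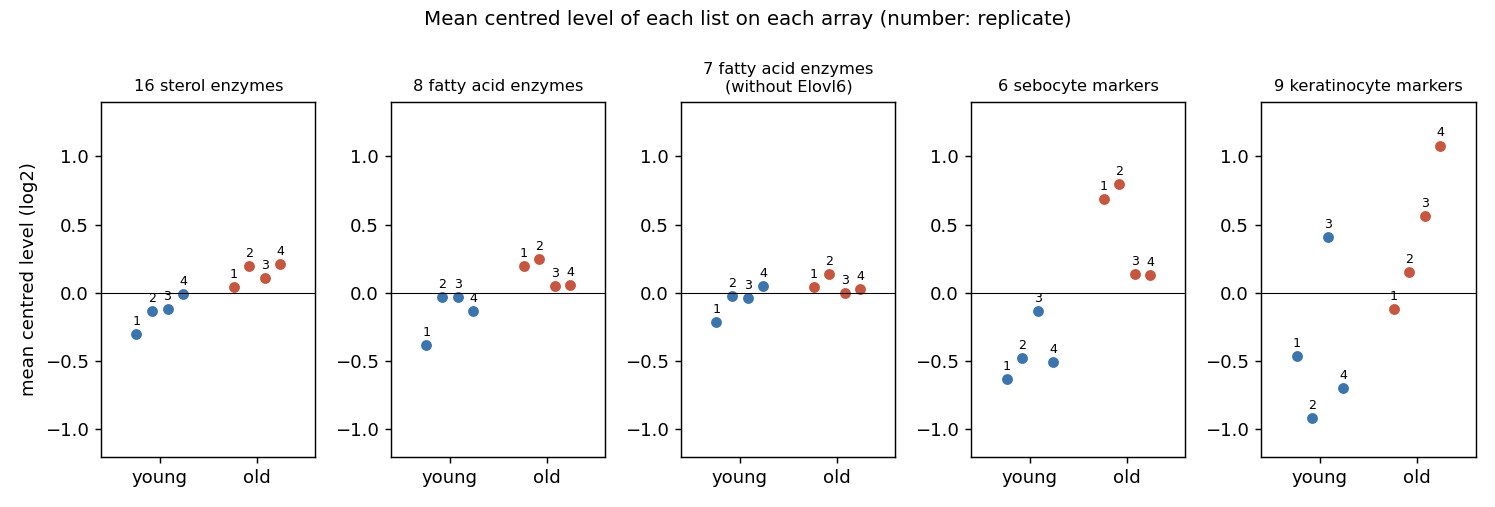
Mean centred level (y axis, log2) of the sterol enzymes, the fatty acid enzymes with and without Elovl6, and the sebocyte and keratinocyte markers on each array (points, numbered by replicate). Old arrays lie above young ones for both enzyme branches and for the sebocyte markers, but not for the keratinocyte markers (young 3 at 0.41, old 1 at -0.12) or without Elovl6.

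Within each age the animals differed in a way that many of the genes shared. Young 1 was the lowest young array for 18 of the 28 genes, against 26.1% of all genes, and old 1 the lowest old array for 13, against 34.0%. Both were lowest for 11 genes (10.4% of all genes), namely Hmgcs1, Idi1, Fdps, Fdft1, Dhcr7, Stard4, Insig1, Srebf2, Acaca, Acly and Fads2. This set thus holds regulators and enzymes of both branches. Young 4 and old 2 were the highest of their age for 13 genes each (18.2% and 14.3% of all genes). Without both arrays numbered 1 there were 9 higher genes and 1 lower, against 1562 and 1180 of all genes. Young 1 also had the highest background index of all arrays (5.68), and old 1 the lowest (4.87). Whether these arrays come from the same collection day is not given in the labels, and the part of the day in their low values was not tested.

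The background index, lower in every old array than in any young one, was also used as a covariate. With it none of the 28 genes was called by limma (adjusted p from 0.114 to 0.988), as against 0.427% of all genes called higher and 0.597% lower. At an unadjusted p under 0.05 there were 6 of 28 (12.8% of all genes): Idi1 (1.14), Msmo1 (0.43), Hsd17b7 (0.76), Stard4 (0.70), Scap (0.38) and Fads1 (-0.71). Of the 13 called genes 7 kept a difference within 1.5 times of the first, these 6 and Hmgcs1 (0.24). The other 6 became smaller by more than that: Sqle (0.26), Lss (0.16), Cyp51 (0.28), Acss2 (0.06), Elovl6 (0.39) and Scd1 (0.21). Elovl6, Scd1 and Acss2, the 3 fatty acid genes that had risen, were all among them. The covariate separates the ages without overlap, so the parts of age and background cannot be told apart.

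Other genes of these pathways, were taken from a list of neighbours by function. Of 36 measured, 8 rose and 4 fell, with a median difference of 0.09, where 9.87% of all genes rose and 7.66% fell, with a median of 0.01. Mbtps2, the Golgi protease that releases SREBPs, rose by 0.44 (adjusted p = 0.00233) and Insig2, the second Insig, by 0.39 (0.0192). The first protease, Mbtps1, differed by -0.22 and did not pass (adjusted p = 0.082). Malic enzyme, Me1, which supplies NADPH for fatty acid synthesis, rose most, by 0.94 (adjusted p = 3.08e-04) from 7.65 ± 0.19 to 8.59 ± 0.14 (SD, n = 4 each). The enzymes that work with Elovl6 in each elongation cycle, Hsd17b12 (0.65, adjusted p = 0.0193) and Hacd2 (0.49, 0.00847), rose as well, while Tecr did not pass (0.05). Acsl4 (0.44) and Acsl5 (0.34), which activate fatty acids, and the phosphatidate phosphatase Lpin1 (0.43) rose. The elongase of very long chains Elovl1 (-0.28, adjusted p = 0.0349) fell, and so did Agpat3 (-0.28), the sterol exporter of lysosomes Npc1 (-0.26) and Fgf21 (-0.27). Me1, Mbtps2, Hsd17b12 and Hacd2 were called whichever array was left out, and the other 8 calls were each lost without at least 2 of the 8 arrays taken singly. With the background covariate none of the 12 was called by limma (adjusted p from 0.0705 to 0.988). The differences of Me1 (0.58), Hsd17b12 (-0.04), Hacd2 (0.10), Acsl5 (-0.01), Lpin1 (0.04) and Fgf21 (-0.14) were then smaller in size by more than 1.5 times, those of Hsd17b12 and Acsl5 with the sign turned.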

How the data were processed

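Dermal fibroblasts of 4 young and 4 old mice were measured on 8 arrays. The authors deposited log2 probe set summaries, made with RMA and the R package affy per the submitters' processing notes (versions and genome build not given in the sources used here). RMA makes array distributions alike, which hides a shift shared by most genes. Probe sets (45141) were named by the platform annotation: 28898 had 1 symbol, 551 several and 15692 none. Matching to RefSeq by gene ID succeeded for 28689. The ages were set against each other for 17097 genes by lmFit and eBayes (limma 3.58.1, R 4.3.3; 2-sided, no covariate, Benjamini-Hochberg over all genes). The test was tested on simulated data with 200 of the 17097 genes changed. It called 63% of changes of 0.5 log2 and 93% of changes of 1, and 1.89% of its calls were false. The simulated noise was normal and independent between genes, with no effect shared by the genes of an array. These shares therefore need not hold for the real arrays. Adjusted p-values of further probe sets come from the same model over all 28898 probe sets, and those given for an alternative from its own fit. Each array is a separate animal, and the number of arrays limits the precision. The members and lists were chosen with earlier results of these data known, so no list was tested. All members were named, with called neighbours (at most 8, largest first; other neighbours and markers named were chosen after their values were seen) and, per cell type list, the brightest gene and that of smallest p. Alternatives are given in the closing section. Figures were drawn with matplotlib 3.10.9.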

Additional observations from a re-analysis of the deposited data

Results flagged for a closer look

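In 6 of 62 groups of 4 values searched (28 genes and 3 branch means in each age), 1 array lay far from the other 3, by a gap above Dixon's 95% critical share of the group's range. Chance flags about 1 in 20 such groups. Nsdhl in young 1 was at 7.42 with the others between 7.66 and 7.68, and Fads2 in young 1 was at 6.40 with the others between 6.82 and 6.89. Sc5d in old 1 was at 6.66 while the other 3 old arrays were all at 6.98. Fasn in young 4 was at 8.40 with the others at 8.16 to 8.17. Mvd in old 2 (5.68, others 5.52 to 5.54) and Mvk in young 3 (7.12, others 7.18 to 7.19) were small gaps in tight groups. None of these 6 genes was called, and 3 of the 6 values were on an array numbered 1.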

How the results depend on the processing

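The 12 higher genes became 7 with an adjusted p under 0.01 and 0 with the background index as a covariate. They became 7 when genes dimmer than the median were left out (20 of the 28 then remained to be tested). Leaving out 1 array gave 7 to 11. Of all genes 1688 were higher in the main fit, 771 at 0.01 and 73 with the covariate. Without the dimmer genes 1550 of those kept were higher, and with 1 array left out 1215 to 1709 of all genes. The 1 lower gene became 2 with the mean over all probe sets (Mvk, -0.19, adjusted p = 0.0426) and 0 with the covariate. Of all genes 1310 were lower in the main fit, 1345 with that mean and 102 with the covariate. The contrast of the branches, 0.00, moved to 0.19 with the covariate and to 0.17 without Elovl6. It was -0.09 with the most variable probe set and 0.08 without both arrays numbered 1. With 1 array left out it lay between -0.05 and 0.05. Signs changed among genes that had not passed. Mvd was at -0.02 (mean over probe sets) and -0.11 (most variable probe set, or sets without an s or x mark), Sc5d at -0.01 (most variable), and Acaca at 0.01 and 0.04 (mean, most variable). With the covariate Nsdhl was at -0.19, Insig1 at -0.06, Acaca at 0.02 and Fasn at -0.01, and without both arrays numbered 1 Nsdhl was at -0.02 and Acaca at 0.01 (chosen after seeing the data, as were the contrasts without Elovl6 or Idi1). With 1 array left out Tm7sf2 ranged from -0.03 to 0.01, Acly from -0.03 to 0.17, Srebf2 from -0.13 to 0.05 and Acaca from -0.09 to 0.09. The causes were not tested. Pairing by specimen number was not established: deviations of same-numbered animals correlated at 0.29, 0.05, -0.04 and 0.22, and the labels tie no number to a day. With the replicate block 12 genes were higher and 1 lower (1838 and 1268 of all genes), and no call changed. The adjusted p of Idi1 was then 2.77e-05 and the contrast was 0.00. Levels near the bottom of the range limit what can be seen. Of the 28 genes 8 lay below the median level of all genes: 7 of 16 sterol enzymes, Stard4, and 0 of 8 fatty acid enzymes. Risen genes were among them, in young Lss at 3.82, Msmo1 at 4.56, Hmgcs1 at 4.59, Stard4 at 4.67 and Sqle at 5.16. With genes dimmer than the median left out the contrast of the branches was 0.02.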
